A study of Drosophila melanogaster with 2 samples.

Results

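Glycolysis enzyme genes are described here as places in the genome where a tagged transcription factor, Irbp18, was or was not found. The 10 members are Hex-A, Pfk, Ald1, Tpi, Gapdh1, Gapdh2, Pgk, Eno, Pyk and Ldh, listed by symbol, out of 13968 protein-coding genes on the chromosome arms. All 10 matched the annotation, Pyk through its synonym PyK. They were chosen by symbol after the site calls and peak heights of these same lists had been seen, so their counts and heights are a description and were not tested. The material came from whole Drosophila melanogaster embryos aged 0 to 24 h that carried an Irbp18 (CG6272) and enhanced GFP fusion, and the fusion was precipitated through GFP. Both samples, biological replicates 1 and 2, belong to this 1 group, and no untagged or input library was analysed here. The labels name 1 fly strain and do not say whether the fusion replaced the native protein. Whole embryos mix all tissues, so strong binding in few cells and weak binding in many cannot be told apart.

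Glycolysis splits glucose into pyruvate in the cytosol. An upper arm spends ATP to make triose phosphates, a lower arm earns ATP from them, and lactate dehydrogenase then turns pyruvate into lactate. In fly embryos the nuclear receptor ERR is known to switch on many of these genes midway through development. Irbp18 belongs to the C/EBP branch of the basic leucine zipper (bZIP) factors, and its known partners include Xrp1 and crc, the fly relative of ATF4.

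Peaks came as ranked lists of candidates and as shorter thresholded lists. A candidate in a thresholded list, with an irreproducible discovery rate (IDR) of at most 0.01, is called a site here. The conservative list, from both libraries, held 3454 sites among 132911 candidates, the other pooled list 3598 sites, replicate 1 had 2773 and replicate 2 had 2023. Signal values are the authors' own and are called peak heights here for short. How they were scaled is not stated in the labels or headers, and each is read only within its list. Their median over sites was 121 in the conservative list, 83.4 in replicate 1 and 74.9 in replicate 2. Read depth is unknown.

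The sequences below are 101 bp of the dm6 reference centred on the summits of 8 member sites, those that carry the account that follows. Each is written on the strand of its gene, so that reading on leads towards the start of the named transcript. Capitals mark matches to CGATA, the core of the BEAF and DRE sites, and to the relaxed C/EBP words TTACNNAA and TTGCNNAA, on either strand.
Hex-A, at the start (chrX:9585501-9585601, plus strand): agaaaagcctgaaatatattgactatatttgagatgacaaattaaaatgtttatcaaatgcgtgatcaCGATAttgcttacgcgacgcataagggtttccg
Hex-A, farther upstream (chrX:9583860-9583960, plus strand): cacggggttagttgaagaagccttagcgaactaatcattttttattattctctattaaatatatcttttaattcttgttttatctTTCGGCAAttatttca
Gapdh2 (chrX:15867936-15868036, plus strand): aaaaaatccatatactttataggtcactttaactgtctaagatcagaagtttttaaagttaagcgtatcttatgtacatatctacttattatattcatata
Pgk, innermost start (chr2L:2748710-2748810, minus strand): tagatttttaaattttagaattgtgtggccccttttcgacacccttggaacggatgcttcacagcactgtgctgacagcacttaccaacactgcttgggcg
Pgk, at the third start (chr2L:2750396-2750496, minus strand): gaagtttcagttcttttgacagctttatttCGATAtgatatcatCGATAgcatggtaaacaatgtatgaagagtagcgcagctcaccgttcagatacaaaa
Eno, innermost start (chr2L:1727878-1727978, minus strand): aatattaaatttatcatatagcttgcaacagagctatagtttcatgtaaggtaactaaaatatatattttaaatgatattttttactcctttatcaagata
Pyk (chr3R:22368845-22368945, plus strand): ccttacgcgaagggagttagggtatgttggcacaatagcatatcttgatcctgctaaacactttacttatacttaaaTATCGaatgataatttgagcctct
Ldh (chr3L:6262866-6262966, minus strand): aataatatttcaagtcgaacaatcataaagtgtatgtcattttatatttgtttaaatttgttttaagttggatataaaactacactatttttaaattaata
A relaxed C/EBP word was found in 1 of these windows, the one 1765 bp upstream of Hex-A. The windows of Ldh, Eno, Gapdh2 and the innermost Pgk start held no capitals, and the first 3 of these were rich in A and T.

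Of the 10 members, 5 had a conservative site within 500 bp of an annotated start, against 16.8% of all protein-coding genes. These were Hex-A, Pgk, Eno, Pyk and Ldh. In the other pooled list and in replicate 2 Gapdh2 joined them, giving 6 members in each, where 18.0% and 11.0% of protein-coding genes had a site. Replicate 1 gave the same 5 members as the conservative list, with 15.4% of genes called. Every member has at least 2 annotated starts, while the median protein-coding gene has 1. Among the 3699 genes with 2 or more starts 26.6% had a site, a share worked out after the values had been seen. Inside the genes or within 2 kb of them lay 12 conservative sites and 100 candidates in all, and 6 members had at least 1 such site (29.9% of protein-coding genes did). The sixth was Pfk, whose site lies at a neighbour's start. The same count was 7 in the other pooled list, 6 in replicate 1 and 6 in replicate 2, where 31.2%, 27.1% and 20.5% of protein-coding genes were called. Candidates of any height within that reach are common. They were found for 9 members in the conservative list (89.4% of genes), 10 in the other pooled list (89.4%), 9 in replicate 1 (90.7%) and 10 in replicate 2 (91.9%). The count at starts stayed at 5 with an IDR of up to 0.05 (21.1% of genes) and with starts up to 1000 bp away (19.2%). It was also 5 with only the top score of 1000 (14.1%) and with each site given to its nearest start alone (12.2%). By arm of the pathway, the upper-arm member with a conservative site at its own start was the hexokinase gene Hex-A, at the entry. On the lower arm Pgk, Eno and Pyk had such sites, and so did Ldh after it. Pfk, Ald1 and Tpi of the upper arm and Gapdh1 of the lower arm had none in any of the 4 lists. Gapdh2 of the lower arm had a site in the other pooled list and replicate 2 only. The upper-arm gene Pgi, not a member, had a conservative site at its start (102). A difference between the arms was not tested.

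**Figure D1:**
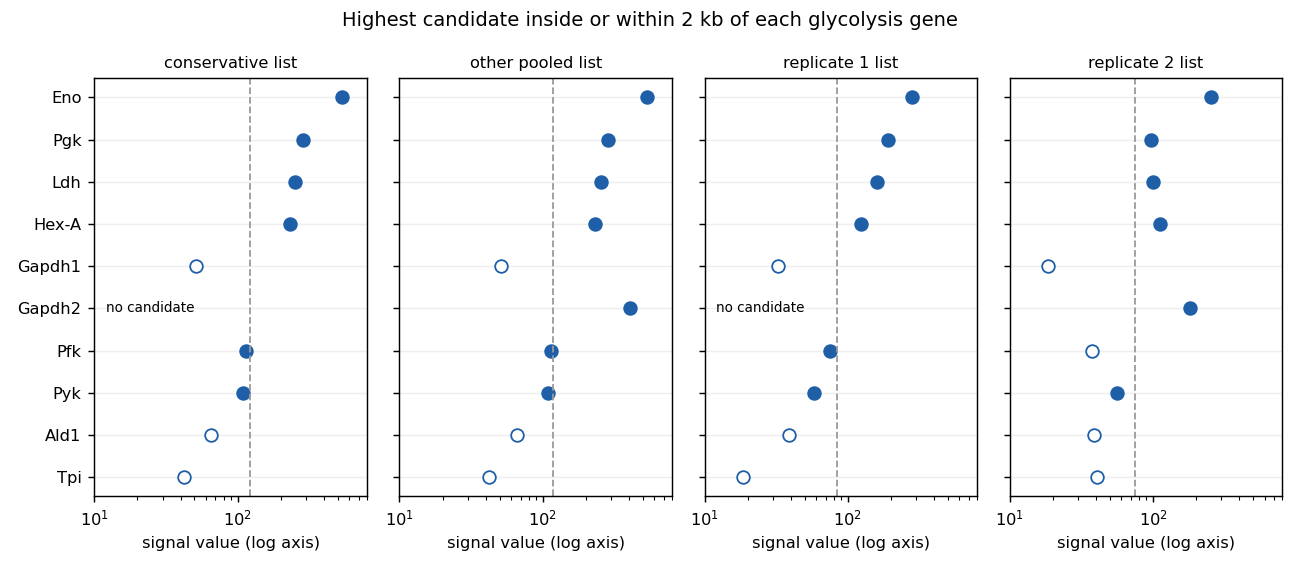
Signal value (log axis) of the highest candidate inside or within 2 kb of each of the 10 members, in each of the 4 lists. Filled points passed the IDR threshold, open points did not, and the dashed line is the median of all sites of that list. Eno is the highest member in every list, and Gapdh2 has no candidate in the conservative and replicate 1 lists.

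Hex-A encodes hexokinase, which phosphorylates glucose on entry. Its gene (FBgn0001186) lies at chrX:9585675-9589813 on the plus strand and has starts 215 bp apart. The site at the start, at chrX:9585373-9585728, had a signal value of 99.6 in replicate 1 and 55.6 in replicate 2. Its conservative value was 137, with the summit 124 bp upstream of the outer start. A stronger site lay farther out, at chrX:9583879-9584041, with 123 in replicate 1, 112 in replicate 2 and 233 in the conservative list. It was 1765 bp upstream of Hex-A but only 267 bp upstream of the start of lncRNA:CR45541. In the counts at starts it therefore does not count for Hex-A. Its place within 2 kb of Hex-A keeps it among the member sites. Both Hex-A sites were called in both replicates, within 50 bp of the conservative summit. Replicate 1 alone called another, 673 bp upstream, with a signal value of 46.3.

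Pfk encodes phosphofructokinase, the committing step of the pathway (FBgn0003071, chr2R:10109740-10117457, plus strand). The conservative list had 0 candidates within 500 bp of either of its starts. Its nearest site, at chr2R:10117461-10117816, sat just past the 3' end of the gene, 6769 bp from the nearest Pfk start and 55 bp upstream of the start of dmpd. That site had 74.9 in replicate 1, where it was called, 37.7 in replicate 2, where it was not, and 114 in the conservative list. Replicate 1 called a low peak beside it as well, with a signal value of 9.50. Replicate 2 had a candidate 221 bp downstream of a Pfk start, with an IDR of 0.463.

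The aldolase gene Ald1 (FBgn0000064, chr3R:26254069-26261591, minus strand) and the triose phosphate isomerase gene Tpi (FBgn0086355, chr3R:30132981-30134599, minus strand) had candidates but no site. The Ald1 candidate at a start lay 26 bp downstream of it, with 28.6 in replicate 1, 26.7 in replicate 2 and 59.4 in the conservative list (IDR 0.0692). A higher one, 65.8 with an IDR of 0.0916, was 71 bp from the start of CG6154 and 1142 bp upstream of Ald1. In the other pooled list its IDR was 0.0189, still above the limit. The best Tpi candidate at a start had 15.6 in replicate 1, 19.9 in replicate 2 and 39.3 in the conservative list, with an IDR of 0.543. In replicate 2 a Tpi candidate within the coding exons reached 40.8 and an IDR of 0.0358. All of these fell below the median of the sites in their lists.

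Gapdh1 and Gapdh2 encode the paralogous glyceraldehyde-3-phosphate dehydrogenases and differed in these lists. At Gapdh1 (FBgn0001091, chr2R:7791901-7793380, minus strand) the highest candidate of each list had 32.3 in replicate 1, 18.5 in replicate 2 and 51.2 in the conservative list. The conservative one lay within a coding exon, 427 bp downstream of the nearer start, with an IDR of 0.245. At Gapdh2 (FBgn0001092, chrX:15868145-15869661, plus strand) the other pooled list had a site at chrX:15867880-15868088 with a signal value of 407, rank 244 of 132767 candidates, and replicate 2 had 181, rank 222 of 115618. The summits were 159 and 152 bp upstream of the outer start, and both had an IDR of 1e-05, the lowest the lists give. Among the members only Eno was higher in these 2 lists. The conservative and replicate 1 lists had 0 candidates within 2 kb of Gapdh2, not even weak ones. In replicate 1 the neighbouring candidates on either side were 17894 bp apart, while the median spacing of candidates was 693 bp and 0.49% of gaps were as long. Of the 3567 sites of the other pooled list on X, 2L, 2R, 3L and 3R, 11 had no replicate 1 candidate within 2 kb, and Gapdh2 was the 1 such site among the strongest 500. The reason for this gap was not tested, and the missing values are not read as missing binding.

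Pgk encodes phosphoglycerate kinase, the first ATP-earning enzyme of the lower arm. The gene (FBgn0250906) runs along the minus strand at chr2L:2746880-2753068, has 5 annotated starts, the most among the members together with Ald1, and held 4 conservative sites. The strongest, at chr2L:2748679-2748834, lay 273 bp upstream of the innermost start and within the 5' UTR of longer transcripts. It had 192 in replicate 1, 96.1 in replicate 2 and 285 in the conservative list. The next, at chr2L:2750268-2750623, lay 299 bp upstream of the third start, in an intron of longer transcripts, with 109 in replicate 1, 76.1 in replicate 2 and 185 in the conservative list. Its window carried CGATA at 2 places, both shown in capitals above. The fourth start had a weaker site 312 bp upstream, with 53.8 in replicate 1 and 39.0 in replicate 2, below the threshold in each, and 107 in the conservative list. The outermost Pgk start and the second start had no conservative site within 500 bp. A last site, with 49.2, 62.8 and 119 in replicate 1, replicate 2 and the conservative list, lay 862 bp into the gene and 239 bp upstream of a start of the neighbour Bacc, and only replicate 2 called it within 100 bp. Replicate 1 called a peak that overlaps it, at chr2L:2751785-2752114, with a signal value of 45.2 and an IDR of 0.00634. Of the 4 sites, the upper 2 by height were called in both replicates.

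Eno, the enolase gene, held the highest member site of every list. The gene (FBgn0000579) lies at chr2L:1724768-1729636 on the minus strand and has 3 starts. The main site, at chr2L:1727765-1728039, had 281 in replicate 1, 253 in replicate 2 and 533 in the conservative list. That ranked it 177 of the 120616 candidates of replicate 1 and 151 of the 132911 conservative candidates. Its summit was in an intron, 211 bp upstream of the innermost start. A weaker site at chr2L:1729572-1729927, with 65.4 in replicate 1, 72.0 in replicate 2 and 136 in the conservative list, lay 114 bp upstream of the outermost Eno start. It also lay 137 bp upstream of the start of CG31937, which runs the other way, so it cannot be given to 1 of these genes alone. The middle start had no site within 500 bp. Replicate 1 and the other pooled list called an additional low peak beside the weaker site, with signal values of 13.3 and 12.7, whose IDR was close to that of the stronger peak next to it.

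Pyk (FBgn0267385, chr3R:22367536-22372746, plus strand) encodes pyruvate kinase, the last step before pyruvate. Its conservative site at chr3R:22368717-22369072 had a signal value of 109, below the median of the list, and lay in an intron, 387 bp upstream of the inner start. In replicate 1 the called summit was 366 bp upstream of that start with 57.9, and in replicate 2 it was 237 bp upstream with 55.7. These summits were thus called in both replicates but lay farther apart than the 100 bp used to match sites. Another conservative candidate, 178 bp upstream with a signal value of 75.2, had an IDR of 0.707. No site was called within 500 bp of the outer Pyk start.

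Ldh (FBgn0001258, chr3L:6259105-6262694, minus strand) encodes lactate dehydrogenase. Its main site, at chr3L:6262738-6263093, had 158 in replicate 1, 100 in replicate 2 and 253 in the conservative list, 222 bp upstream of the outermost start. The inner starts had 0 sites. A further conservative site 1963 bp upstream, between genes, had a signal value of 81.6, 45.2 in replicate 1 and 34.7 in replicate 2, and was called in neither replicate nor in the other pooled list. It was the conservative member site nearest the threshold, with an IDR of 0.0052. Just outside the threshold lay a candidate downstream of Pyk (IDR 0.0576, signal value 53.3), one 451 bp upstream of the outermost Pgk start (0.0615 and 56.5) and the Ald1 candidate given above. Ldh is also known as a gene that responds to ATF4.

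**Figure D2:**
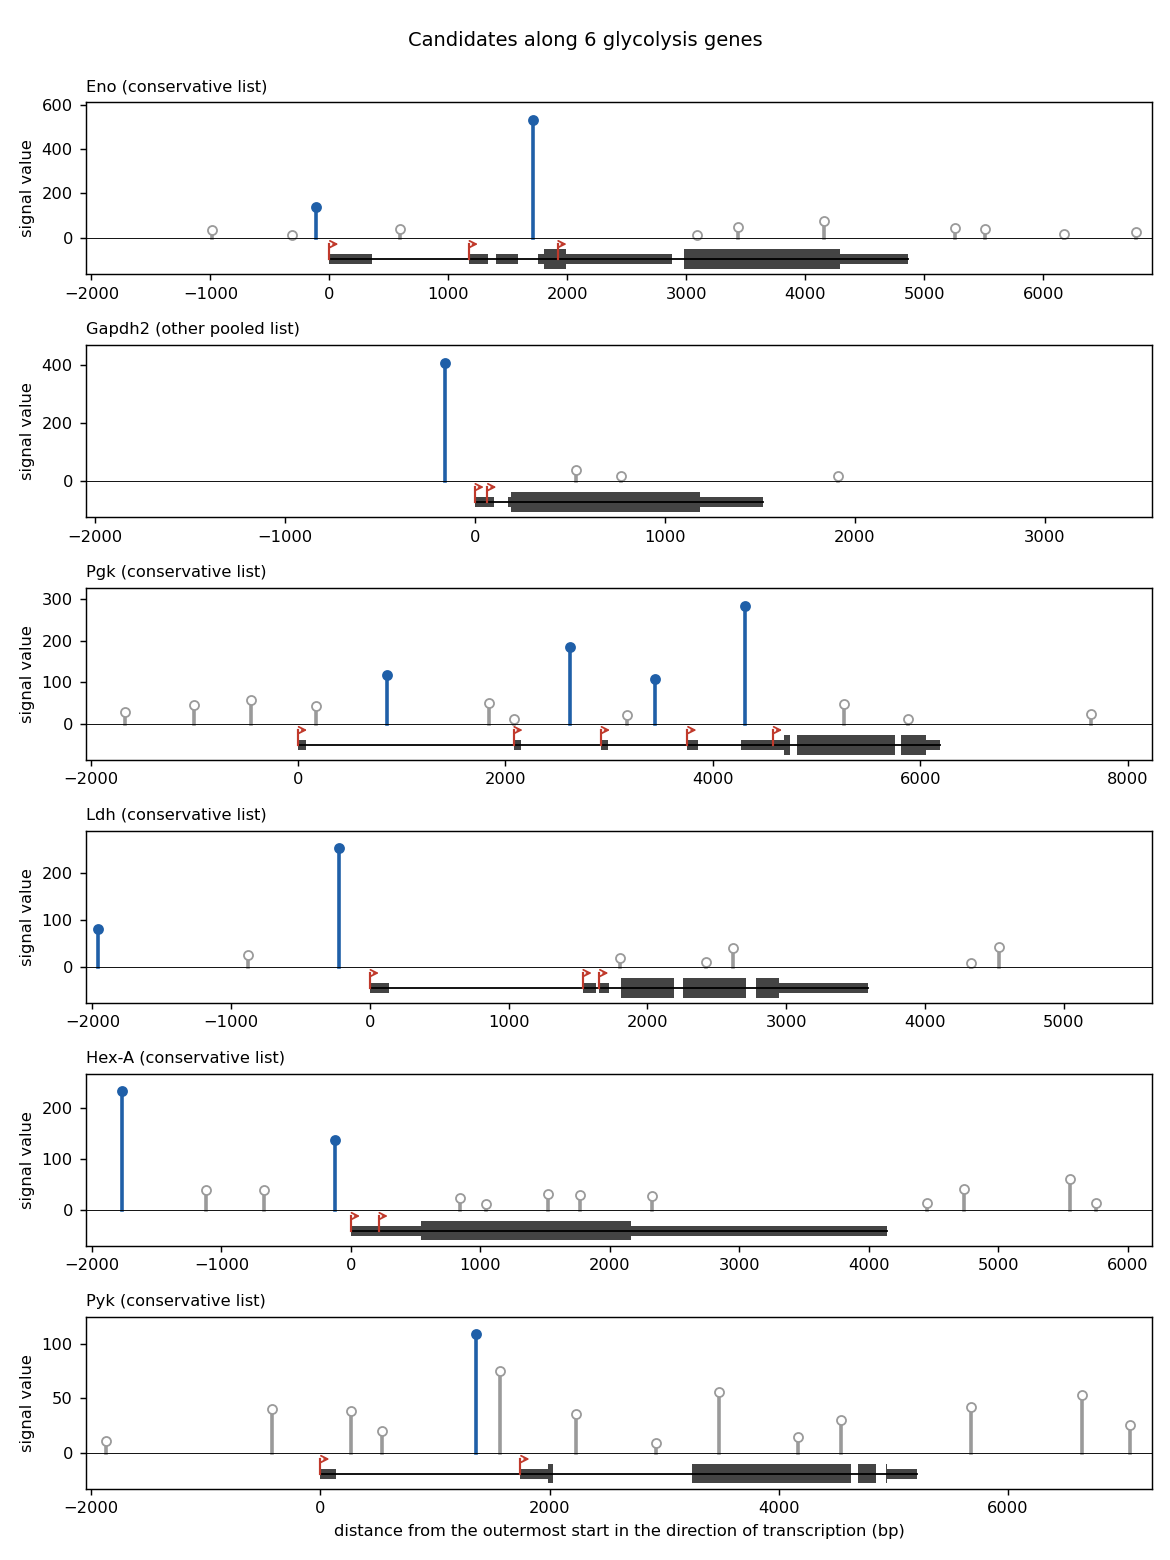
Candidates along 6 members, drawn in the direction of transcription with distance from the outermost start (bp) on the horizontal axis and signal value on the vertical axis, for the conservative list and, for Gapdh2, the other pooled list. Blue stems passed the IDR threshold and grey ones did not, red arrows mark annotated starts, and thin and thick boxes mark exons and coding sequence. At Eno, Pgk and Pyk the highest site sits before an inner start, at 533, 285 and 109, and at Gapdh2 and Ldh before the outer one, at 407 and 253.

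Of the 12 conservative sites, 7 had a site of both replicates within 100 bp. They were both sites of Eno, both of Hex-A, the upper 2 of Pgk, and the main Ldh site. Over all 3426 conservative sites on the arms the share was 47.2%. Replicate 1 alone matched the Pfk and Pyk sites, replicate 2 alone matched the Pgk site near Bacc, and the other 2 (the fourth Pgk start and the distal Ldh site) matched neither.

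All 8 conservative sites within 500 bp of a member start had their summit upstream of it, from 114 to 387 bp away. Their median position was -247.5 bp, against -78 bp for the 1899 sites within 500 bp of any start, of which 79.2% were upstream. Beyond 200 bp lay 6 of the 8 member sites and 22.3% of the 1899. With a distance of 200 bp in place of 500, Hex-A and Eno alone remained, 2 of 10 members against 12.4% of protein-coding genes. Of the 5 members called, Pgk and Pyk had sites at inner starts only, and so did 9.18% of the 2343 genes called and 21.9% of the 983 of them with 2 or more starts. Counting outermost starts alone left Hex-A, Eno and Ldh, 3 of 10 against 15.2%. The Pgk sites share a gene, as do those of Eno, so they are not independent examples, and none of these differences was tested.

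**Figure D3:**
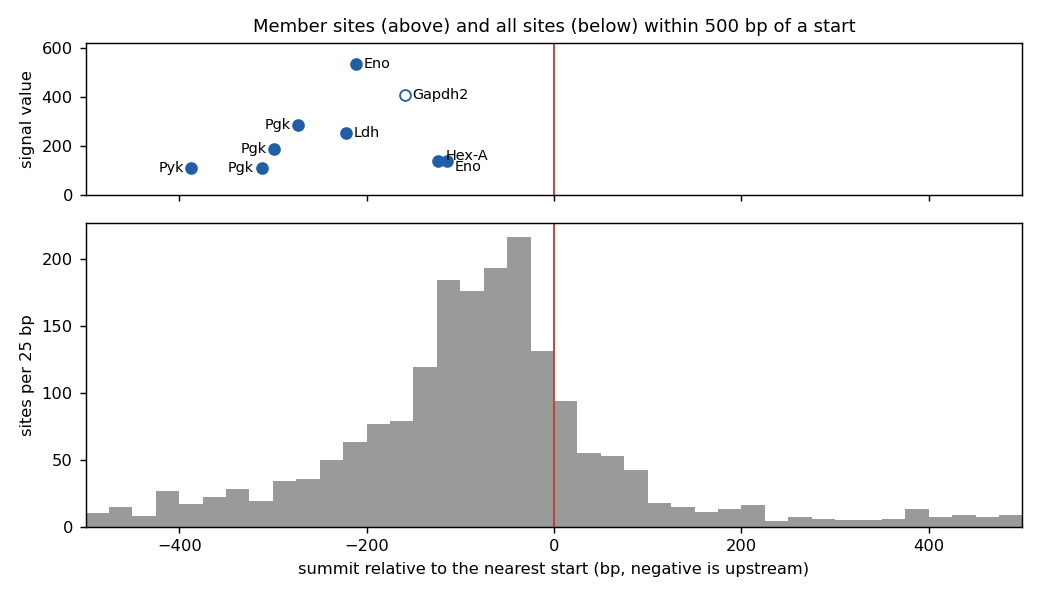
Upper panel: position of the 8 conservative member sites (filled) and the Gapdh2 site of the other pooled list (open) relative to the nearest start in bp, with signal value on the vertical axis. Lower panel: number of all 1899 conservative sites within 500 bp of a start, per 25 bp. The member sites lie between 387 and 114 bp upstream, while the bulk of all sites lies closer to the start.

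The strongest member windows were poor in G and C. GC content within 50 bp of the summit was 17.8% at the main Ldh site, 20.8% at the main Eno site, 23.8% at Gapdh2 and 27.7% at the distal Hex-A site, as the sequences above show. The median was 36.6% over all 3426 sites and 29.7% over the strongest 25% of them. Only 1.11% of sites had a lower GC content than Ldh and 2.92% a lower one than Eno. The strongest Pgk window was an exception at 46.5%. Over the 12 conservative sites GC content ran from 17.8% to 55.4%, so low GC content was not a feature of all of them. The main Eno peak was 275 bp wide, the strongest Pgk peak 156 bp, the distal Hex-A peak 163 bp and the Gapdh2 peak 209 bp, and the main Ldh peak had the common width of 356 bp. Of the strongest 25% of all sites 81.7%, and of the other sites 4.09%, were narrower than that.

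Words known for bZIP pairs and other factors were looked for in the member windows. Each word was searched on both strands within 50 bp of the summit. The composite C/EBP and ATF4 site (CARE, TGATGCAA or TGATGTAA), the C/EBP palindrome TTGCGCAA, the PAR site TTACGTAA, the CRE TGACGTCA and the AP-1 site (TGAGTCA or TGACTCA) each occurred in 0 of 12 windows. Their shares over all 3426 sites were low as well, from 0.117% to 0.934%. The relaxed C/EBP words occurred in 1 of 12, against 16.7% of all sites and 12.5% of windows centred on protein-coding starts. Any bZIP word was found in 1 of 12, against 18.1% of all sites. Within 100 bp of the summit such a word also stood beside the main Ldh site and Gapdh2, and an AP-1 word beside Hex-A at its start. TTGCGCAA and TTACGTAA are special cases of the relaxed words, and the AP-1 words are reverse complements of each other. CGATA was found in 4 of 12 windows (the third Pgk start, Hex-A at its start, Pyk and the Pfk neighbour), against 20.8% of all sites and 23.6% of starts, while the full DRE, TATCGATA, which contains it, was found in none (3.47% of all sites). The word bound by a single ERR, AAGGTCA, and the E-box CACGTG were found in 0 windows (0.642% and 1.05% of all sites), and the hypoxia core ACGTG, which the E-box contains, in 2 (7.76%). GAGAG occurred in 1 window (9.08%), TATAAA in 2 (17.6%) and the M1BP word GGTCACACT in 0 (0.759%). A match is only a run of letters in the window.

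The rest of carbohydrate metabolism was looked at through 6 lists of other genes, 58 of 61 listed symbols having a match in the annotation. Together 15 of the 58 had a conservative site within 500 bp of a start, against 5 of 10 members and 16.8% of all protein-coding genes. Among other glycolytic enzymes 3 of 14 did. In replicate 2 alone 1 of 14 did, Pgi, where 11.0% of protein-coding genes had a site. The 3 were Pgi (102), for the isomerase after hexokinase, Pglym78 (105), for the mutase between Pgk and Eno, and Pfrx (103), for the enzyme that sets fructose 2,6-bisphosphate. Their summits were 14, 1 and 70 bp upstream of the start. Pglym78 had 70.4 in replicate 1, where it was called, and 34.3 in replicate 2, where it was not. Pfrx likewise had 70.6 in replicate 1 and, not called, 34.0 in replicate 2. The start of CG14200 lay just as close to the Pfrx summit, and Hex-C, Hex-t1, Hex-t2, Pglym87 and the pyruvate kinase relative CG7069 had candidates below the threshold with signal values from 10.6 to 41.9.

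Of 10 matched genes around pyruvate and glycerol phosphate, 3 had a conservative site at a start, against 16.8% of protein-coding genes. That share also stands beside the conservative counts of the lists below. The phosphatase gene Pdp (263) and the subunit gene Pdhb (201) belong to pyruvate dehydrogenase and its activation, and Mpc1 (123) encodes a mitochondrial pyruvate carrier. Gpdh1, for the glycerol phosphate dehydrogenase, had 81.5 and missed the limit with an IDR of 0.0567, though replicate 2 called it. Gluconeogenesis had 0 of 5, and its highest candidate was at PCB, the pyruvate carboxylase gene (67.8, IDR 0.0401). In sugar storage and uptake 3 of 10 had a site. In replicate 2 alone 1 of 10, Glyp, did, against 11.0% of protein-coding genes there. The glycogen phosphorylase gene Glyp stood out with 277 in replicate 1, 211 in replicate 2 and 490 in the conservative list, 167 bp upstream of its start. In the conservative list only Eno was higher among the members and listed genes. Glys (111), for glycogen synthase, and Pgm1 (103), for phosphoglucomutase, were the others, with 53.1 and 50.9 in replicate 2, where neither was called. On the pentose phosphate branch Rpe (256) and Zw (96.1), which opens the branch, made 2 of 6. In replicate 2 alone the count was 1 of 6 (11.0% of protein-coding genes), since Zw, with 42.0, was not called there. Pgls (95.2) had a conservative IDR of 0.0124 and was a site in the other pooled list.

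The last list held 13 genes for regulators of sugar genes, for Irbp18 or for its partners, most of them transcription factors. Against 16.8% of protein-coding genes, 4 of these had a conservative site at a start. They were Irbp18 itself (355), ERR (285), bigmax (217), whose protein pairs with the sugar sensor Mondo, and Hph (102), for the hydroxylase that marks the hypoxia factor sima. The ERR site lay 137 bp upstream of ERR and 49 bp upstream of Atg18a, the bigmax site was nearer to Hmu (75 bp) than to bigmax (168 bp), and the Irbp18 site was nearer to APP-BP1. With each site given to its nearest start alone, 1 of 13, Hph, remained, against 12.2% of protein-coding genes. The Hph site had 63.5 in replicate 1 and 31.2 in replicate 2, and was called in neither. The candidates at starts of sima (62.5, IDR 0.0205) and Xrp1 (64.9, IDR 0.0497) missed the limit, and crc, Myc, Mondo and foxo had no ranked candidate at a start. Away from starts, conservative sites inside the gene or within 2 kb were found for sima, Xrp1 and foxo. By that wider measure 8 of the 13 had a site, and 27 of the 58 genes of all 6 lists, against 29.9% of protein-coding genes.

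**Figure D4:**
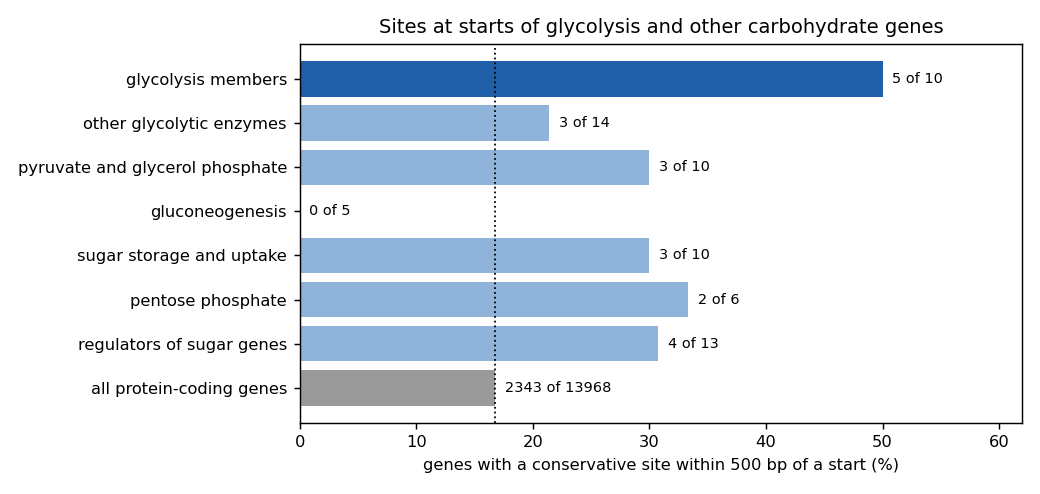
Percent of genes with a conservative site within 500 bp of a start, for the 10 members, the 6 other lists and all protein-coding genes, with counts beside the bars. The dotted line is the share over all protein-coding genes, 16.8%, and the members reach 5 of 10 while gluconeogenesis has 0 of 5.

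Any ranked conservative candidate at a start was found for 8 of the 10 members and 75.5% of protein-coding genes. The highest such candidate had a median signal value of 123 over the 8 members, from 39.3 at Tpi to 533 at Eno, and of 41.8 over all genes that had one. Pfk and Gapdh2 had no conservative candidate at a start and are not part of that median. The members were chosen with their heights known, so this difference was not tested. The highest candidate was taken over all starts of a gene. Members have from 2 to 5 starts, against a median of 1 over protein-coding genes.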

How the data were processed

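The authors deposited peak lists on dm6, thresholded and ranked, for each replicate and for 2 pooled analyses. The aligner and the peak caller are not named in these sources. The signal column of the deposited lists holds the authors' signal values, called heights here. The score column of the deposited lists is a whole number up to 1000 that followed the IDR on a binary log scale. The ranked lists as deposited give the IDR as −log10. Another 32 columns, 8 in each of the 4 ranked lists, hold values of single input sets and were not used.

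Gene starts were those of Ensembl release 115 (BDGP6.54), with pseudogenes and transposable elements left out. Every peak on the arms ended within the RefSeq release 6 sequence, from which the windows were read. Candidates were taken by summit inside each member or within 2 kb. Ranks go by signal value. Counts, distances and words were computed with Python 3.11.15 and pandas 2.3.3, and the assignment was checked on planted summits. The members and lists were chosen with earlier results of these data known. Listed symbols without a match in the annotation were not used here. Named genes were the members, every listed gene with a conservative site at a start, the highest candidate of each list, and genes nearer to a member site; further listed genes below the threshold were named after their values were seen. No test was run, since both samples form 1 group. Labels do not say whether the replicates came from separate embryo collections, beyond calling them biological.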

Additional observations from a re-analysis of the deposited data

How the results depend on the processing

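The count of 5 members with a site at a start was 5 or 6 in 7 of 9 alternatives and fell to 2 with a start distance of 200 bp and to 3 with outermost starts only. It was 5 without replicate 2 and 6 without replicate 1. The 15 other carbohydrate genes ranged from 10 without replicate 1 (11.0% of protein-coding genes) to 20 with an IDR of up to 0.05 (21.1%). Without replicate 1, other glycolytic enzymes, sugar storage and uptake, and the pentose phosphate branch had 1 each, against 3, 3 and 2. Pyruvate and glycerol phosphate had 4 there against 3, and the regulators 3 against 4. With an IDR of up to 0.05 gluconeogenesis had 2 against 0, the regulators 6 against 4 and the pentose phosphate branch 3 against 2. The number of members with a site inside or within 2 kb was 6 without either replicate and 7 in the other pooled list. The 7 sites matched in both replicates stayed 7 at 50 bp and became 8 at 200 bp. Words of the bZIP families were found in 1 of 12 windows within 50 bp (18.1% of all sites), in 0 within 25 bp (9.60%) and in 3 within 100 bp (31.3%), where wider windows hold more words by construction. Gapdh2 has a value in the other pooled list and replicate 2 only. No paired analysis was possible because both replicates belong to 1 group. Read depth is unknown, so no counting error could be given for the heights, and with 2 replicates the spread of any site rests on 2 values.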
